A study of Mus musculus with 6 samples.

Results

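The genes described here move lactate, pyruvate and related acids across the plasma membrane or interconvert lactate and pyruvate. They are 6 members of the Slc16 transporter family (Slc16a1, Slc16a3, Slc16a6, Slc16a7, Slc16a10 and Slc16a13), the chaperone gene Bsg, and the lactate dehydrogenase genes Ldha and Ldhb. These 9 genes were picked by symbol from the 24972 entries of the deposited table, all 9 were found, and all 9 passed the filter on low values. The set was drawn up after the cKO and control values of Slc16a6 in these same libraries were known, so the differences of the 9 genes are given as descriptions with no test. The sequenced poly(A) RNA came from flow-sorted basal cells of mouse back skin epidermis, and values are the authors' normalized counts per gene and library. All 6 libraries, controls included, came from mice labelled p63CreER, Piezo1fl/fl and R26-mTmG. These carry a tamoxifen-activated Cre driven with p63 in the basal layer, a floxed Piezo1 gene for a mechanically gated cation channel, and a fluorescent reporter of recombination. The mice of the 3 control libraries had received vehicle, and those of the 3 Piezo1 cKO libraries 3 tamoxifen injections of 20 ug per dose at postnatal days 45 to 52. Exposure to tamoxifen and loss of Piezo1 therefore cannot be told apart. The labels do not say that every library came from a separate animal.

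Monocarboxylate transporters of the lactate group carry a lactate, pyruvate or ketone body anion together with a proton, so the direction of flow follows the gradients of both. Slc16a1 and Slc16a3 encode MCT1 and MCT4, which are brought to the cell surface by the immunoglobulin-family chaperone basigin, the product of Bsg. Lactate dehydrogenase is a tetramer of A and B subunits, and the A form is the one typical of cells that make lactate from glucose, as epidermal keratinocytes do. The Slc16 family also holds carriers of other substrates, such as aromatic amino acids.

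The libraries were of unequal depth. The approximate depth was 20.9 to 24.6 M reads in controls, 15.6 and 14.2 M in cKO replicates 2 and 3, and 1.05 M in cKO replicate 1, where 1 read was worth 12.3 normalized counts. The last depth is the least certain, since 48.0% of the low values of that library lay within 0.05 of a whole read, against 86.2% to 91.3% in the others. Ribosomal protein genes took 14.1% of the normalized counts of that library and 6.51% to 8.48% of the others. The targeted gene Piezo1 ranged from 806 to 1476 normalized counts in the control group and from 380.3 to 565 in the cKO group. The basal keratin gene Krt5 was at 228148 to 266942 in all libraries, but not every basal marker was level. Trp63 was at 5440 to 7312 in controls and 7880 to 9939 in cKO, wholly above. Itgb4 was at 10211 to 12063 in controls and 8306 to 9873 in cKO, wholly below. Krt14, Itga6 and Col17a1 overlapped between groups. The summed values of the 6 fibroblast and the 5 endothelial markers reached 43.4 and 24.8 at most. All 8 T cell markers were measured, with sums of 82.5 to 141 in controls and 363 to 1087 in cKO, though Ptprc, the pan-leukocyte gene among them, was listed at 0 in cKO replicate 1. The 8 Langerhans cell and myeloid markers summed to 1384 to 1813 in controls and 2254 to 10678 in cKO. Sums of the 6 suprabasal markers found overlapped (45247.5 to 106471 in controls, 84995.5 to 100847 in cKO). So did those of 7 hair follicle markers (99535.4 to 115173 and 84095.4 to 171697). Within these lists Krt1 (10299 to 24228 against 24980 to 37749) and Krt79 (2847 to 4012 against 4561 to 7427) were wholly higher in cKO. Their other markers overlapped between groups. Xist and the Y-linked gene Ddx3y showed female RNA in control replicate 1 and cKO replicates 1 and 2, and male RNA in the other 3 libraries.

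Slc16a6 encodes MCT7, which is known in zebrafish as an exporter of the ketone body beta-hydroxybutyrate from liver. Control replicates 1, 2 and 3 gave 42.9, 32.6 and 39.9 normalized counts of Slc16a6, whereas cKO replicates 1, 2 and 3 gave 194, 220.1 and 129. Every cKO library was above every control library, and the control values lay close together. The means were 38.5 ± 5.32 and 181 ± 47.0 (SD, n = 3 each). On the log2(value + 1) scale the cKO mean was 2.18 higher (SE 0.33), a 4.53-fold difference. This is the contrast by which the gene was chosen. In RNA from a sorted population, a difference in how many cells express the gene and one in RNA per cell cannot be told apart. Leaving out each library in turn gave differences from 2.02 to 2.40, and without the shallow cKO replicate 1 the value was 2.11.

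The depth behind Slc16a6 was modest. About 15.8 reads lay behind the value of cKO replicate 1, for which an exact 95% Poisson interval was 112 to 320 normalized counts. The control values rested on about 66.4 to 84.6 reads, and the highest upper bound among their intervals was 53.3 normalized counts. These intervals cover counting error only. Among libraries with female RNA the log2 difference was 2.24 (1 control, 2 cKO) and among those with male RNA 1.81 (2 controls, 1 cKO). Immune marker sums were also higher in cKO, though in another order among the cKO libraries than Slc16a6. Slc16a6 was highest in cKO replicate 2, where the T cell sum and the Langerhans and myeloid sum were the lowest of the cKO libraries (363 and 2254). It was lowest in cKO replicate 3, where both sums were highest (1087 and 10678). The part of such cells, or of suprabasal or hair follicle cells, in the Slc16a6 difference was not tested. The 7 melanocyte markers summed to 178 to 202 in controls and to 109, 239.6 and 188 in cKO replicates 1, 2 and 3, overlapping between groups, and Mitf made up most of each sum. Among the single markers Dct was at 7.25 to 9.02 in controls and at 12.3, 34.2 and 50.6 in cKO. It was above the controls in each cKO library, though worth about 1 read in cKO replicate 1. Tyrp1 and Pmel were listed at 0 in that library. In cKO replicates 2 and 3 Tyrp1 was at 9.94 and 7.69, against 3.96 at most in controls. Pmel was at 12.85 and 17.59 there, against 10.32 at most in controls. Tyr was above the controls in cKO replicate 2 only and Sox10 in no cKO library. Mitf was below every control in cKO replicates 1 and 3. Mlana was near 0 in all libraries, at 0.49 at most, in control replicate 2.

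The Slc16a6 gene occupies bases 109450855 to 109473598 of chromosome 11, minus strand (GRCm38, GENCODE M21, ENSMUSG00000041920.14). Its exons cover 4.88 kb, of which 1052 bases are shared with exons of Amz2 and 48 with exons of Arsg, both on the plus strand. The library kit was strand-specific, but whether strand was used in counting is not given in the sources used here, so reads from these stretches may be divided in either way. Amz2 stood at 291, 264 and 218 normalized counts in controls and at 514, 263 and 272 in cKO. In cKO replicates 2 and 3 Amz2 was within its control range, and Slc16a6 was above its own. Gene totals do not show how shared reads were assigned, and their part in the Slc16a6 difference was not tested. Arsg, a sulfatase gene, was at 15.6 to 28.8 in controls and 13.9 to 31.5 in cKO. Wipi1 and Prkar1a lie on the same side as Arsg and beyond it, and no gene beyond Amz2 on the other side was listed. Wipi1 gave a log2 difference of -0.55 (SE 0.67), which turned to 0.21 without cKO replicate 1, and Prkar1a gave -0.30 (SE 0.17). None of these 4 neighbours passed adjustment in limma.

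**Figure D1:**
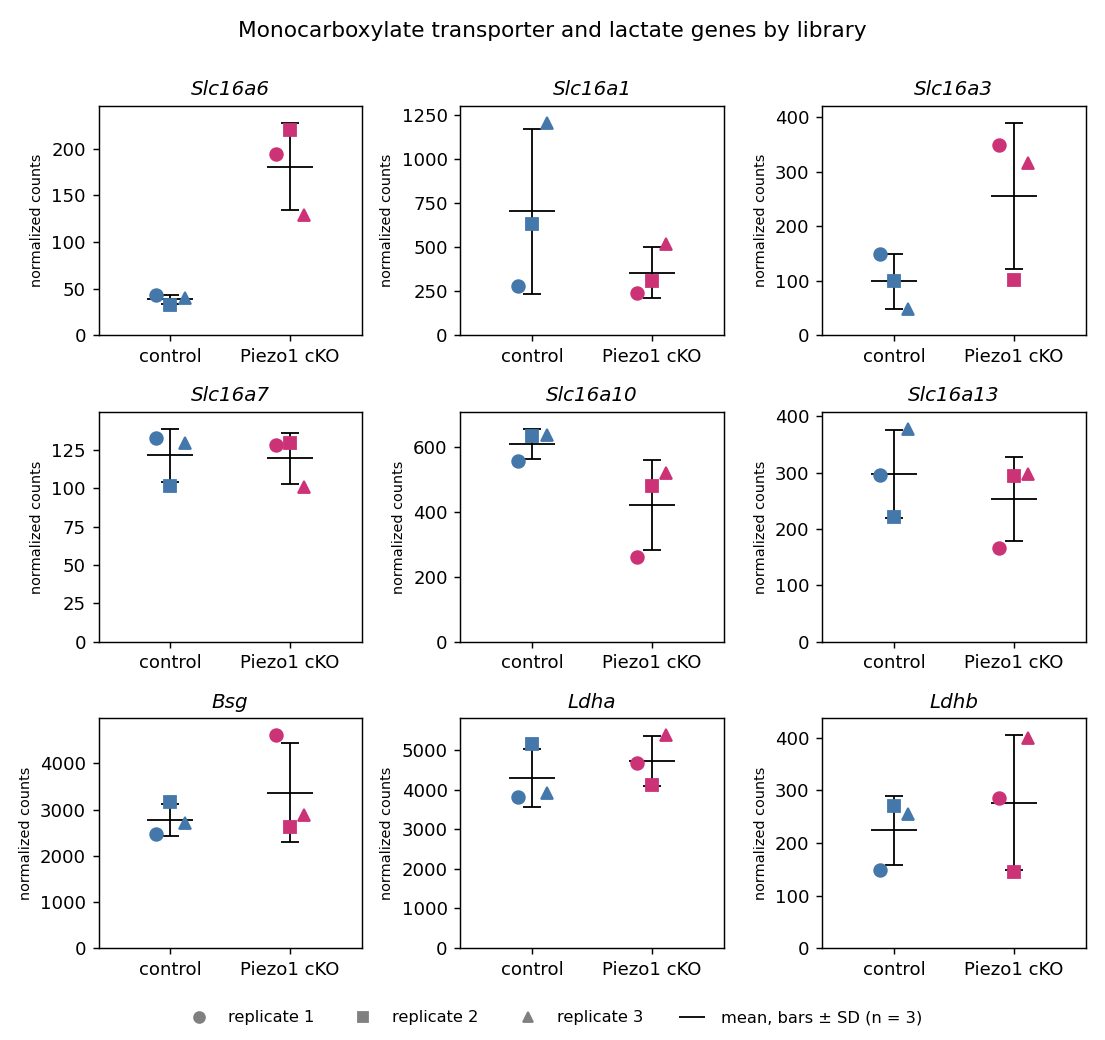
Normalized counts (linear axes from 0) of the 9 genes in the 3 control libraries (blue) and the 3 Piezo1 cKO libraries (red), with the symbol giving the replicate number, the horizontal line the mean and the bars the SD. The groups are apart for Slc16a6 (32.6 to 42.9 against 129 to 220.1) and for Slc16a10 (557 to 639 against 262 to 519.7), and overlap for the other 7 genes.

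Slc16a1, the widely expressed proton-linked carrier MCT1, varied most among the controls. Its normalized counts were 279, 629 and 1205 across control replicates 1, 2 and 3, and 239, 309.7 and 515 across cKO replicates 1, 2 and 3. The groups overlapped, since control replicate 1 was below 2 of the cKO libraries. The means were 704 ± 468 and 355 ± 144 (SD, n = 3 each), a log2 difference of -0.82 (SE 0.53). That value was -0.31 without control replicate 3 and -1.37 without control replicate 1. The sexes were unevenly spread, and every library with male RNA held more Slc16a1 than every library with female RNA. Among female libraries the log2 difference was -0.03 (1 control, 2 cKO), among male ones it was -0.76 (2 controls, 1 cKO), and with a sex term in the fit it was -0.40. The sums of 6 sebocyte markers, most of each being Scd1, were 3860, 9418 and 9894 in control replicates 1, 2 and 3 and 3283, 3843 and 6009 in cKO replicates 1, 2 and 3. Control replicates 2 and 3 were highest and cKO replicate 1 lowest both in this sum and in Slc16a1. Single markers did not all follow, since Plin2 was at 593 in cKO replicate 1 against 298 in control replicate 1. The part of sebocyte RNA in the Slc16a1 values was not tested.

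Slc16a3 encodes MCT4, the lactate exporter typical of strongly glycolytic cells. Its normalized counts were 149.8, 99.4 and 48.8 across the controls, against 348, 102 and 317 across cKO replicates 1, 2 and 3. Control replicate 1 exceeded cKO replicate 2, so the groups overlapped. The means were 99.3 ± 50.5 and 256 ± 134 (SD, n = 3 each), a log2 difference of 1.31 (SE 0.57). It was 0.87 without control replicate 3, 0.99 without cKO replicate 1 and 1.87 without cKO replicate 2. The value was 0.33 among female libraries (1 control, 2 cKO) and 2.17 among male ones (2 controls, 1 cKO), and whether the sexes differ was not tested. Egln3, a hypoxia-induced prolyl hydroxylase that was singled out after its values were seen, was likewise highest in cKO replicates 1 and 3. Egln3 was at 1077, 1106 and 558 in controls and 1523, 702 and 2174 in cKO (log2 difference 0.60, SE 0.44). Ndrg1, another hypoxia-responsive gene, went the other way, at 6804 to 14571 in controls and 4116, 7172 and 3975 in cKO. Of the 17 hypoxia genes tested, 9 had higher and 8 lower fitted values. The 8 lower include Hif1a, Epas1 and Arnt, which encode subunits of the hypoxia-inducible factors themselves. Nothing is read from Egln3 alone.

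Ldha and Slc16a3 are textbook targets of the hypoxia-inducible factors, which bind DNA around short runs of letters. ACGTG is 1 form of these and the only one searched here. The 250 bases before the start sites of these genes and of Slc16a1 are shown to let the reader compare what the transporter and enzyme promoters hold (RefSeq, GRCm38.p6, 5′ to 3′ on the strand of the gene). Capitals mark ACGTG on either strand, with the palindrome CACGTG, which holds it on both, taken as 1 place.
Ldha, chr7:46845554-46845803, plus strand: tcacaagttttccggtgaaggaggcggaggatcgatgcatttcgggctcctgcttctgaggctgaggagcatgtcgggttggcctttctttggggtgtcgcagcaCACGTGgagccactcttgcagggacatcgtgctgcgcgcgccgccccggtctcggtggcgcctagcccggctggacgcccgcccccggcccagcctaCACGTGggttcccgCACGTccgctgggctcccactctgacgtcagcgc
Slc16a3, chr11:120948817-120949066, plus strand: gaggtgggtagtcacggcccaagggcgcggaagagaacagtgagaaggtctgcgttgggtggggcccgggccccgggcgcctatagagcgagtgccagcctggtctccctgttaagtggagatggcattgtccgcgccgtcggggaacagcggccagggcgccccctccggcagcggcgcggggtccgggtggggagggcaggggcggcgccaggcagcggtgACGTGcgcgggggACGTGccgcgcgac
Slc16a1, chr3:104638414-104638663, plus strand: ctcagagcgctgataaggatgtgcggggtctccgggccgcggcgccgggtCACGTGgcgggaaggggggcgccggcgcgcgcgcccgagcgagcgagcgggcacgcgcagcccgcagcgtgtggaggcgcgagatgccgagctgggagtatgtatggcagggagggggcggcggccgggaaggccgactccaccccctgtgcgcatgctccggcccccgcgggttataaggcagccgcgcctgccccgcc
The window of Ldha held 3 such places, that of Slc16a3 held 2 and that of Slc16a1 held 1. Of 32851 promoter windows of this length, 16.6% held at least 1, 1.93% at least 2 and 0.244% at least 3. The windows of Slc16a10 and Ldhb, and that of a second start site of Ldha, held 0 places with ACGTG. Other forms, such as GCGTG, were not counted. Entries were found for 5 of the 9 genes. A match describes the letters only, and says nothing about binding in these cells.

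Slc16a7 encodes MCT2, a carrier with high affinity for pyruvate and lactate. It was nearly level across the study, at 133, 102 and 129.7 normalized counts in controls and 128, 129.8 and 101 in cKO. The groups overlapped fully, with means of 121 ± 17.2 and 119.5 ± 16.4 (SD, n = 3 each) and a log2 difference of -0.02 (SE 0.26). Its sign changed with the library left out (-0.14 to 0.10) and with the library totals made equal (0.02).

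Slc16a10 encodes TAT1, which carries aromatic amino acids rather than lactate. The controls held 557, 634 and 639 normalized counts of it, and cKO replicates 1, 2 and 3 held 262, 482 and 519.7. Every cKO library was below every control library, with the shallow cKO replicate 1 the lowest by far. The means were 610.2 ± 46.0 and 421 ± 139 (SD, n = 3 each), a log2 difference of -0.59 (SE 0.28), and without cKO replicate 1 it was -0.28. Slc16a13, a less studied member of the family, was at 296, 220.5 and 377 in controls and at 167, 295 and 298 in cKO. Here the groups overlapped, and the log2 difference of -0.25 (SE 0.31) became 0.03 without cKO replicate 1. Among female and male libraries Slc16a10 gave -0.65 and -0.29, and Slc16a13 gave -0.41 and 0.04.

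Bsg, which encodes basigin, reached 2473, 3155 and 2704 normalized counts across the controls, against 4606, 2615 and 2882 across cKO replicates 1, 2 and 3. The value of cKO replicate 1 stood apart and the other cKO libraries were within the control range. The log2 difference was 0.24 (SE 0.25), and -0.01 without cKO replicate 1. Among female libraries, which include that replicate, it was 0.49, and among male ones -0.02.

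Ldha, the lactate dehydrogenase A subunit gene, reached 3809, 5145 and 3926 normalized counts across the controls, against 4678, 4112 and 5373 across cKO. The groups overlapped, with means of 4293 ± 740.0 and 4721 ± 632 (SD, n = 3 each) and a log2 difference of 0.14 (SE 0.21). GENCODE M21 lists 2 named pseudogenes of Ldha, and how reads shared with them were counted is not given, so its level is less certain. Ldhb, the B subunit gene, held 149, 269.9 and 255 across the controls, against 286, 144 and 399.5 across cKO replicates 1, 2 and 3. Its log2 difference of 0.23 (SE 0.41) turned to -0.10 without cKO replicate 3 and -0.04 without control replicate 1. Per kb of exon, Ldha exceeded Ldhb by 7.32 to 12.1 times in controls and 6.38 to 13.5 times in cKO, so the A subunit transcript led in every library.

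A gap was taken within each library between Slc16a6 and the other 8 genes. It is not corrected for gene length, so only its change between groups is read. The log2(value + 1) of Slc16a6 minus the median of the other 8 was -2.72, -3.62 and -3.59 in control replicates 1, 2 and 3. It was -0.49, -0.45 and -1.81 in cKO replicates 1, 2 and 3. The change of this gap, from which a factor common to a library nearly cancels, was 2.39, and 2.02 to 2.83 over the alternatives tried. Of the 9 genes, 5 had fitted values above 0 and 4 below, with a median of 0.14 (0.03 without cKO replicate 1), against 47.1% above, 52.9% below and a median of -0.03 over all 12239 genes tested. Groups that did not overlap were seen for 1 gene with higher cKO values, Slc16a6, and 1 with lower, Slc16a10, where 5.16% and 5.7% of all genes showed this. Nothing is read from these counts, because the set was chosen on the same contrast. With limma's adjusted p held to 0.05, 0.0% of all genes were called, and the smallest adjusted p in limma was 0.744. The targeted gene Piezo1 (log2 difference -1.31, SE 0.27) was therefore not called either. Unadjusted, 603 genes had p under 0.05 (1.47% of all higher, 3.46% lower), and limma-voom on approximate reads called 0, with 680 at an unadjusted p under 0.05.

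**Figure D2:**
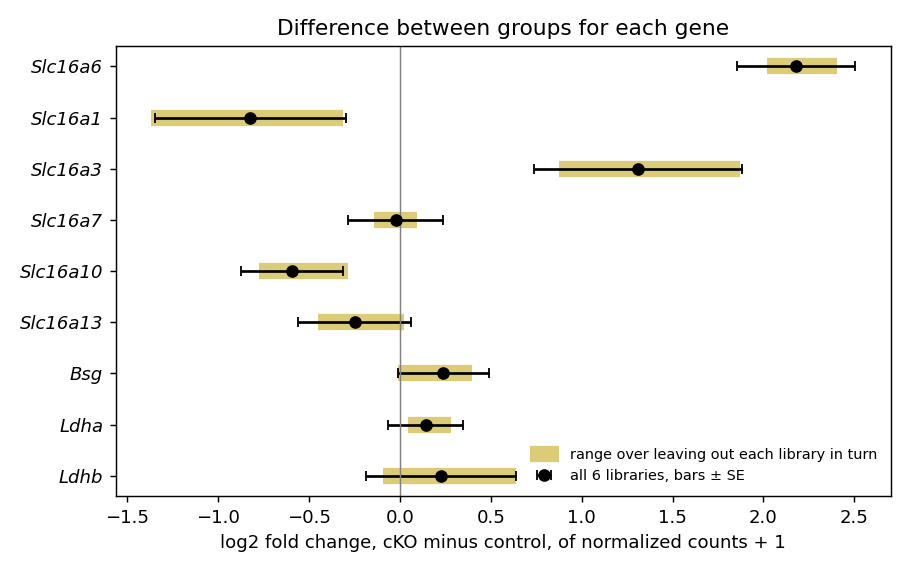
Log2 fold change of cKO minus control on the log2(value + 1) scale for each of the 9 genes, with points and SE bars from all 6 libraries and yellow bands spanning the values when each library is left out in turn. Slc16a6 stays between 2.02 and 2.40, while the bands of Slc16a7, Slc16a13, Bsg and Ldhb cross 0.

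Levels of different genes were set side by side per kb of exon. In controls Bsg (1531 ± 191 normalized counts per kb, SD, n = 3) and Ldha (1297 ± 224) were highest and their ranges overlapped. A wide gap separated them from Slc16a1 (159 ± 106), Ldhb (143 ± 42.0), Slc16a13 (114.5 ± 30.1) and Slc16a10 (83.0 ± 6.25), each of which overlapped the next. Slc16a3 (18.7 ± 9.49), Slc16a7 (10.3 ± 1.45) and Slc16a6 (7.88 ± 1.09) were lowest, again each overlapping the next. In cKO Bsg (1856 ± 596) and Ldha (1426 ± 191) again led, followed by Ldhb (176 ± 81.5), Slc16a13 (97.3 ± 28.7), Slc16a1 (80.1 ± 32.4) and Slc16a10 (57.2 ± 18.9), each of these 4 overlapping the next. There Slc16a6 was at 37.1 ± 9.63 normalized counts per kb, overlapping Slc16a3 (48.1 ± 25.2) and apart from Slc16a7 (10.1 ± 1.39), which it did not exceed in the controls.

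The make-up of the 6 transporter transcripts differed between libraries. Slc16a6 made up 2.92%, 1.92% and 1.54% of their summed level per kb in control replicates 1, 2 and 3 and 14.7%, 13.9% and 6.66% in cKO replicates 1, 2 and 3. Slc16a1 held 20.9%, 41.0% and 51.1% in the controls and 20.0%, 21.6% and 29.4% in cKO, so control replicate 1 resembled the cKO libraries in this share. The ratio of Slc16a1 to Slc16a3 per kb was 2.24, 7.61 and 29.6 in controls and 0.824, 3.64 and 1.95 in cKO. The summed level of the 6 was 301 to 532 normalized counts per kb in controls and 269.8 to 396 in cKO, with overlapping ranges.

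**Figure D3:**
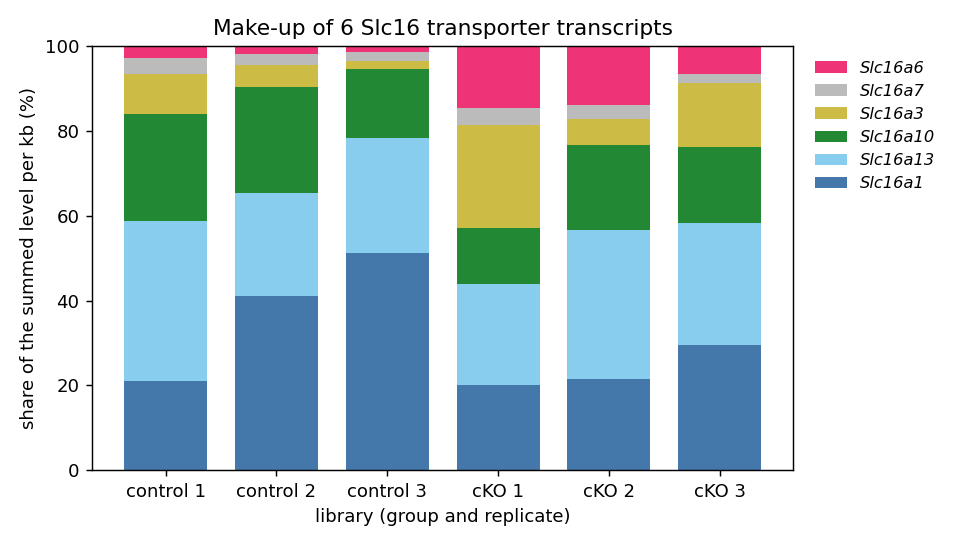
Share of each of 6 Slc16 transcripts in their summed level per kb of exon, in percent, for each library. Slc16a6 (top, red) takes 1.54% to 2.92% in controls and 6.66% to 14.7% in cKO, and Slc16a1 (bottom, dark blue) ranges from 20.0% to 51.1%.

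None of the remaining transporters and chaperones had cKO values wholly above the controls, as Slc16a6 had. Of 12 listed, 7 were tested, 0 were called by limma, 2 had higher and 5 lower fitted values, and the median log2 difference was -0.29, or -0.09 without cKO replicate 1. Slc16a9 was at 388 ± 54.7 normalized counts in the control group and 290.4 ± 65.4 in cKO (SD, n = 3 each; log2 difference -0.43, SE 0.23), Slc16a14 at 139 ± 41.0 and 165 ± 68.4 (0.19, SE 0.42, and 0.60 without cKO replicate 1), and Slc16a11 at 25.7 ± 16.3 and 20.0 ± 8.88 (-0.29, SE 0.69, and -0.58 without it). Slc5a8, a sodium-coupled carrier of lactate and short-chain fatty acids, was at 13.6, 26.2 and 59.5 in controls and at 0, 7.86 and 12.2 in cKO. All 3 cKO values of Slc5a8 were below the controls, but 3 reads in cKO replicate 1 were worth 36.9 normalized counts, so its 0 is under the limit of that library. The chaperone genes Emb, for MCT2, and Nptn gave -0.02 (SE 0.41) and -0.36 (SE 0.25), or 0.12 and -0.09 without cKO replicate 1. Slc16a4, Slc16a5 and Slc16a12 were under 3 normalized counts in every library, and Slc16a8 and Slc5a12 were listed at 0 throughout.

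Genes that handle pyruvate beyond lactate dehydrogenase were mostly lower in fitted value, though none passed. Of 14 tested, 3 were higher and 11 lower (median -0.28, and -0.19 without cKO replicate 1), with 0 called. Pdha1, a subunit of pyruvate dehydrogenase, held 2594, 3080.3 and 3264 normalized counts across the controls and 1612, 2356 and 2173 across cKO (-0.55, SE 0.21, adjusted p = 0.744 in limma). All 3 cKO values of Pdha1 were below the controls. Pdk4, a kinase that inhibits that enzyme, gave -0.81 (SE 0.41), and Pdhb and Pdk1 gave -0.25 (SE 0.17) and -0.26 (SE 0.32). Without cKO replicate 1 the value of Pdk1 turned to 0.07.

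Glycolytic genes were divided, with 8 higher and 10 lower of 18 tested (median -0.11, and -0.03 without cKO replicate 1) and 0 called. Slc2a1, the main glucose transporter gene of keratinocytes, held 5157, 5136 and 5999 normalized counts across the controls and 3267, 4320.3 and 4255 across cKO (-0.47, SE 0.20, adjusted p = 0.744 in limma), with no overlap. Aldolase genes Aldoa and Aldoc gave 0.19 (SE 0.23) and 0.59 (SE 0.29), and the pyruvate kinase gene Pkm, the last step before lactate dehydrogenase, 0.02 (SE 0.23). Without cKO replicate 1 these values were 0.04, 0.38 and -0.05. Several glycolytic genes have near-identical processed copies in the mouse genome, so their counts share the uncertainty of Ldha.

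Genes of the hypoxia response were also divided, 9 higher and 8 lower of 17 (median 0.00, and 0.09 without cKO replicate 1) with 0 called. The 8 lower include Hif1a, Epas1 and Arnt (-0.31, SE 0.29), which encode subunits of the hypoxia-inducible factors themselves. Epas1, which encodes HIF-2 alpha, held 1599, 1821 and 1416 normalized counts across the controls and 752, 1043 and 1081 across cKO (-0.76, SE 0.20, unadjusted p = 0.00645 and adjusted p = 0.744 in limma). Hif1a gave -0.70 (SE 0.34), or -0.35 without cKO replicate 1, and the hypoxia-responsive gene Ndrg1 was at 10289 ± 3944 normalized counts in controls against 5088 ± 1806 in cKO (SD, n = 3 each). Car12, a carbonic anhydrase that hydrates carbon dioxide at the cell surface, was at 582, 735 and 608 in controls and 964, 808 and 1181 in cKO (0.61, SE 0.20, adjusted p = 0.744 in limma). The oxygen-sensing prolyl hydroxylase gene Egln1 gave 0.22 (SE 0.19).

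Ketone body genes gave a median of 0.10 over 6 tested, 4 higher and 2 lower, with 0 called. Oxct1, which starts the use of ketone bodies, was at 5239 ± 260 normalized counts in the control group and 5829 ± 663 in cKO (0.15, SE 0.18, and 0.08 without cKO replicate 1; SD, n = 3 each). Ppara, a regulator of fatty acid oxidation and ketogenesis, gave 0.54 (SE 0.27), and the thiolase gene Acat1 -0.16 (SE 0.26), which became 0.32 and 0.08 without cKO replicate 1. Over all 6 lists, locus neighbours included, 66 of 75 genes were tested and 0 were called, against 0.0% of all genes. Since even the targeted gene Piezo1 was not called, a count of 0 says nothing about any of these lists. Among these 66, cKO lay wholly above control for 2 and wholly below for 6, where 5.16% and 5.7% of all genes did so.

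**Figure D4:**
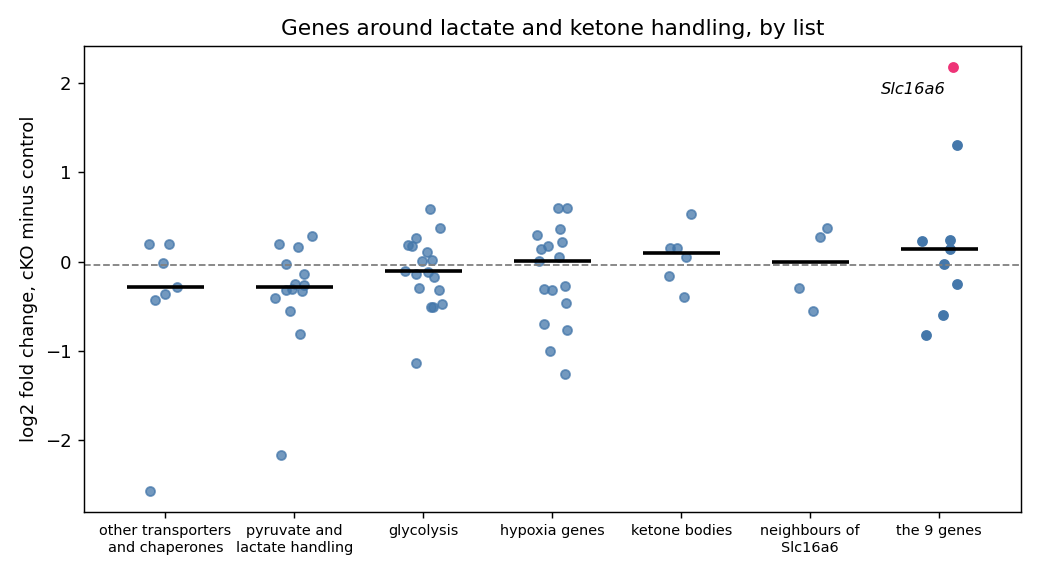
Log2 fold change of cKO minus control for each tested gene of 6 pathway lists and for the 9 genes, with black lines at list medians and a dashed line at the median of all genes (-0.03). Slc16a6 (red, 2.18) lies above every plotted gene, and the lowest points, Slc5a8 (-2.56) and Ldhd (-2.17), are genes listed at 0 in cKO replicate 1, without which they gave -1.42 and -0.39.

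The genes whose values over the 6 libraries lay nearest to those of Slc16a6 were sought among 10022 named genes whose mean reached 50 normalized counts. Nearness was the root mean square difference between log2(value + 1) profiles centred on their means, and it holds the group difference itself. The 5 nearest were Eml6 (0.45), Gpnmb (0.46), Gpc3 (0.47), Gjb6 (0.49) and Hoxc8 (0.53), on the log2 scale. Gpnmb, a membrane glycoprotein known from melanocytes and macrophages, held 34.6, 39.0 and 52.6 normalized counts across the controls and 110.0, 130.4 and 92.1 across cKO. Like Slc16a6 it was highest in cKO replicate 2 and lowest of the cKO libraries in replicate 3. Eml6, of a family of microtubule-associated proteins, was at 49.5, 23.7 and 45.9 in controls and 120.4, 130.6 and 66.0 in cKO, in the same order among the cKO libraries. The other 3 were highest in cKO replicate 1, with Gpc3 at 158, 119 and 145, Gjb6 at 267, 142 and 89.5 and Hoxc8 at 310, 186 and 139 across cKO replicates 1, 2 and 3. Without cKO replicate 1, Eml6, Gpnmb and Gjb6 were again among the 5, and Lrrc32 and Hpgds took the other places.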

How the data were processed

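RNA-seq libraries of sorted basal epidermal cells were analysed, 3 control and 3 Piezo1 cKO, grouped by the sample titles in the labels. Per the submitters' processing notes, STAR and DESeq2 were used with GRCm38, with no versions. Annotation, counting program and strand setting: not given in the sources used here. The deposited table holds the authors' normalized count signal per gene and library, which is never negative and not whole. Low values gather near multiples of 1 smallest value per library, less closely in cKO replicate 1 (48.0% within 0.05 of a whole read) than elsewhere (86.2% to 91.3%). That value was read as 1 read and gave the approximate depth. Between 20 and 100 reads only 9.12% to 10.9% of values lay within 0.05 of a whole read, so whole reads could not be recovered and count tests were not used as the main test.

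Values were compared as log2(value + 1) in limma 3.58.1 (R 4.3.3, trend and robust empirical Bayes, two-sided, no covariates) over the 12239 genes with a mean of at least 10, with Benjamini-Hochberg adjustment at 0.05. This scale understates changes of low genes, but can give larger differences than the ratio of means for genes listed at 0 in the shallow cKO replicate 1. P-values measure the spread between these libraries, part of which may be technical. Differences are written as cKO minus control, with the SE from limma. The fit was also run on simulated data with the same spread for every gene, so that run does not stand for the spread between these libraries. The 9 genes and all lists were chosen with earlier results of these data known. Named beyond the 9 are all other tested transporters, chaperones and neighbours of Slc16a6, and per list the 3 genes of highest value and the 2 of smallest unadjusted p. Piezo1 and the 5 nearest profiles are named too, as are single cell type and sex markers and a few genes singled out after their values were seen, such as Egln3. Exon lengths came from GENCODE M21. Alternatives were the pseudocount, filter, scaling, limma settings, limma-voom, a replicate block, a sex term and leaving out each library. The result of 1 listed gene is not reported here.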

Additional observations from a re-analysis of the deposited data

How the results depend on the processing

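The log2 difference of Slc16a6 was 2.18. Of 16 alternatives, 4 (both filters, limma without trend or robust settings, and the replicate block) cannot move a fitted difference in this balanced design. Under the other 12 it stayed within 1 SD of replicates (2.02 to 2.40), as did its gap to the other 8 genes under 11 (2.02 to 2.83). Leaving out 1 library of a group of 3 cannot move a difference by as much as 1 SD, so those settings could not fail this measure. The differences of the other 8 genes also stayed within 1 SD, with the same limit on that measure, though Slc16a1 ranged from -1.37 to -0.31. Their sign was kept in 12 of these 12 for Slc16a1, Slc16a3, Slc16a10 and Ldha, 11 for Bsg and Slc16a13, 10 for Ldhb and 8 for Slc16a7. With a sex term Slc16a6 gave 2.03 and Slc16a1 -0.40. Leaving out each library in turn called 0 to 1 genes over the whole table; the 1, without cKO replicate 2, was Amd1 and no gene of the set. All other alternatives called 0, and 0 listed pathway genes were called under any. Same-numbered libraries did not deviate together (correlations 0.0945, -0.154 and 0.0686 for numbers 1, 2 and 3), so the numbers were not taken as pairs, and not every library correlated best with its own number. With the replicate block 0 genes were called, 848 had an unadjusted p under 0.05 against 603 without it. That unadjusted count ranged from 169 (control replicate 3 left out) to 1574 (cKO replicate 2 left out). Depth limits cKO replicate 1 most, where 15.3% of tested genes lay under 3 reads, against 0.261% to 0.490% elsewhere.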
